A study of Homo sapiens with 60 samples.

Results

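Glucose enters a cell through membrane carriers and is broken down to pyruvate and lactate by the enzymes of glycolysis. The genes described here are 10 members of that route: the glucose carriers SLC2A1 and SLC2A3, the hexokinases HK1 and HK2, the phosphofructokinase PFKP, the aldolase ALDOA, the dehydrogenase GAPDH, the kinase PGK1, the enolase ENO1 and the lactate dehydrogenase LDHA. They are a list by name, drawn up with earlier results of these data known, and their Ensembl identifiers picked out 10 of the 60675 genes in the deposited count table. SLC2A3 had no count in any library, so 9 of the 10 genes passed the filter on low counts and were tested.

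The cells were HT29, an established human line of colorectal adenocarcinoma origin, and treatment lasted 24 h. Each of the 20 groups held 3 libraries. The treated groups were wortmannin at 10 µM, which inhibits phosphoinositide 3-kinases, and water extracts of 6 medicinal plants, each at 3 doses. High, medium and low doses were 500, 100 and 20 µg/mL for Zingiberis Rhizoma Recens (fresh ginger), Zingiberis Rhizoma (ginger), Pinelliae Tuber, Scutellariae Radix (skullcap root) and Zizyphi Fructus (jujube fruit). For Coptidis Rhizoma (goldthread rhizome) they were 290, 58 and 11.6 µg/mL. Per the series text, an extract toxic below the usual top dose was given at its IC20, a mildly inhibitory concentration, and at dilutions of it. Vehicle cells had 0.1% DMSO per the sample labels, where the series text has 2%. The DMSO content of the treated wells is not given in the labels.

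All 60 libraries are titled as 1 batch, A. Their sample codes begin with 1 for wortmannin, 2 for both gingers, 3 for Pinelliae Tuber and Scutellariae Radix, 4 for Coptidis Rhizoma and Zizyphi Fructus and A1 for vehicle, and the labels do not say what the codes stand for. Neither wortmannin nor any extract shares its code with vehicle. If the codes mark separate handling, a difference from vehicle cannot be told apart from it. The doses of an extract share a code. Whether replicates were cultured separately is not in the labels, and the p-values below therefore reflect only how far these libraries scatter, which may be technical.

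In glycolysis, hexokinases trap glucose inside the cell as glucose 6-phosphate, and phosphofructokinase commits it to breakdown. The steps from aldolase through enolase to pyruvate kinase yield ATP and pyruvate, and lactate dehydrogenase regenerates the cofactor that lets the route run on. Many colorectal tumours and tumour lines use the route heavily even with oxygen present, and the hypoxia factor HIF1A, MYC and insulin signalling through phosphoinositide 3-kinase are textbook activators of its genes.

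Libraries held 11.1 to 34.4 M counts, with a median of 23.4 M. All 10 colon epithelium markers averaged at least 1 CPM (counts scaled to the size of each library, with TMM factors), and the fibroblast markers summed to at most 3.61 CPM in any library, with PDGFRA at 0 in all. Of the leukocyte markers 2 of 5, the lysozyme LYZ and CD68, averaged at least 1 CPM, and the 5 summed to 1450 to 2430 CPM. Of the endothelial markers 1 of 3 did, with sums of at most 2.45 CPM, and of the erythroid markers 0 of 3, with at most 0.226 CPM. An earlier analysis of these data found 4 libraries apart from the others: replicate 1 of vehicle, replicate 1 of low-dose fresh ginger, replicate 2 of high-dose ginger and replicate 3 of high-dose Zizyphi Fructus. In them 6.89%, 6.31%, 6.29% and 8.18% of counts lay in ribosomal protein genes. ALDOA was highest within its group in 3 of these 4 libraries, at 1464 CPM in vehicle replicate 1, 1439 CPM in fresh ginger low replicate 1 and 1575 CPM in Zizyphi Fructus high replicate 3. ENO1 was highest within its group in all 4, at 1865, 1846, 2016 and 2012 CPM in the order named. HK2 was lowest within its group in all 4, at 54.2, 53.0, 59.0 and 47.0 CPM. SLC2A1, GAPDH and LDHA were highest in all but the fresh ginger library, and HK1, PFKP and PGK1 took mixed places.

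Per kilobase of exon, the genes fell on very different levels. GAPDH, which oxidises glyceraldehyde 3-phosphate, had a median over the 60 libraries of 921 CPM per kb, followed by ENO1 with 328 and ALDOA with 304 CPM per kb. LDHA had 151, SLC2A1 111 and PGK1 107 CPM per kb. The enzymes of the upper steps were far lower, PFKP at 27.2, HK1 at 23.6 and HK2 at 10.2 CPM per kb. Raw counts per library ran from 589 for HK2 to 99474 for GAPDH, so that counting error was small for each of the 9 genes.

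SLC2A1 encodes GLUT1, the carrier of basal glucose uptake, and lies on chromosome 1 from 42925375 to 42959176 on the minus strand (GRCh38, GENCODE release 29, as are the positions that follow). SLC2A3, the high-affinity carrier GLUT3, lies on chromosome 12 from 7919230 to 7936275 on the minus strand. Its count was 0 in all 60 libraries, which allows a level of up to 0.27 CPM in the shallowest library and 0.00214 CPM over all of them, taking 3 counts as the limit and counting error only. Its near-identical neighbour SLC2A14 was also at 0 in every library, and 3 annotated processed copies of SLC2A3 together held 396 counts, so assignment between these copies is uncertain. In the table, 2053 of 19693 protein-coding genes had no count in any library.

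HK1, the housekeeping hexokinase, lies on chromosome 10 from 69269984 to 69401884 on the plus strand, and HK2, the inducible one, on chromosome 2 from 74833981 to 74893359 on the plus strand. PFKP, the platelet-type phosphofructokinase, lies on chromosome 10 from 3066333 to 3137712 on the plus strand. ALDOA, which splits fructose 1,6-bisphosphate, lies on chromosome 16 from 30064164 to 30070457, and GAPDH on chromosome 12 from 6533927 to 6538374, both on the plus strand. PGK1, which makes the first ATP of the route, lies on chromosome X from 77910739 to 78129296 on the plus strand. ENO1, which makes phosphoenolpyruvate, lies on chromosome 1 from 8861000 to 8879250 on the minus strand, and LDHA, which turns pyruvate into lactate, on chromosome 11 from 18394388 to 18408425 on the plus strand. Annotated processed copies took few counts: the 65 copies of GAPDH held 0.0994% of the counts of gene and copies together, and the 6 copies of LDHA held 0.278%.

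Promoters of 6 genes that the comparisons below turn on are shown because HIF1A and MYC are known to act on this route through short letter motifs in such sequences. RefSeq gave 22 windows of 300 bases, from 250 before to 50 after an annotated start, for 9 of the 10 genes (assembly GRCh38.p14). The letters searched were ACGTG and GCGTG, cores of the hypoxia response element, and CACGTG, the E-box, which holds ACGTG on both strands. Each was searched on both strands, so that CACGT and CACGC mark matches on the other strand, and matches are in capitals.
SLC2A1: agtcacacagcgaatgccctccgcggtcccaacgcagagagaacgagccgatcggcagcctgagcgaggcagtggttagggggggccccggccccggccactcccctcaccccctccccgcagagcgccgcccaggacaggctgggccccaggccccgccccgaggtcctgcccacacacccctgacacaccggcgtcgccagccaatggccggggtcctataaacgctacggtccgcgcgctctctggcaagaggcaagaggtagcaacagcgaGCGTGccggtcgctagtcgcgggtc
HK2: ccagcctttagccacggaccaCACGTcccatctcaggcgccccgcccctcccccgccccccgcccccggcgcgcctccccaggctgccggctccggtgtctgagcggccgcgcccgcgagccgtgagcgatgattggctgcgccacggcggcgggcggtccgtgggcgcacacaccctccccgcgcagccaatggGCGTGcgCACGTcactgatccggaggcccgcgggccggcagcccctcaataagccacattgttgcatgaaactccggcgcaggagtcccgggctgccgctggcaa
PFKP: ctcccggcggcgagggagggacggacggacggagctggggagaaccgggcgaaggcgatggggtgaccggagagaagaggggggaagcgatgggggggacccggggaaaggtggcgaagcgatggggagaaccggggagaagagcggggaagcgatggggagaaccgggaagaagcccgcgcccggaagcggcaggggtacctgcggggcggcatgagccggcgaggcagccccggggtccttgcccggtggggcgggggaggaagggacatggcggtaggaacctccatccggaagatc
PGK1: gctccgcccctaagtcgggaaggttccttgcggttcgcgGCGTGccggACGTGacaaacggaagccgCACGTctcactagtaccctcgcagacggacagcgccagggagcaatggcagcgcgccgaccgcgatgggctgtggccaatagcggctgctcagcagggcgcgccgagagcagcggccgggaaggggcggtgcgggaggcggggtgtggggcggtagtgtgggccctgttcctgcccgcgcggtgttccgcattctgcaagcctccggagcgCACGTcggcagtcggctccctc
ENO1: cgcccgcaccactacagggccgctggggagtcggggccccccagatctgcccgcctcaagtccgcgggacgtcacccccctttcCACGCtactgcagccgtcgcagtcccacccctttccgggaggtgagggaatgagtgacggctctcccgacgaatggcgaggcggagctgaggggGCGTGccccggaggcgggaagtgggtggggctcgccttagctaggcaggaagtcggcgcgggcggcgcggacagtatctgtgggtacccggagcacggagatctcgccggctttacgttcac
LDHA: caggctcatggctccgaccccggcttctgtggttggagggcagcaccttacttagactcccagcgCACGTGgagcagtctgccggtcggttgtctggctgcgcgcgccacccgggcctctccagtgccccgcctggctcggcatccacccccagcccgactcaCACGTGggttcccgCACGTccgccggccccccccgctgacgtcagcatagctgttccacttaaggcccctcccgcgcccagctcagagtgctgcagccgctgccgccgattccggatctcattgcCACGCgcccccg
These windows lie at chr1:42958819-42959118 on the minus strand for SLC2A1, chr2:74833877-74834176 on the plus strand for HK2 (the first of 2 windows), chr10:3067720-3068019 on the plus strand for PFKP (the first of 4 windows) and chrX:78103998-78104297 on the plus strand for PGK1. That of ENO1 lies at chr1:8878637-8878936 on the minus strand and that of LDHA at chr11:18394313-18394612 on the plus strand (the first of 2 windows). The PFKP window shown holds none of these letters, nor does the second, while the other two do. ACGTG or GCGTG occurred in 15 of the 22 windows, against 48.4% of all 35116 windows of this length, and in at least 1 window of each of the 9 genes. CACGTG occurred in 4 of the 22 windows, against 7.26% of all windows. These lay in 4 of the 9 genes, HK2, ALDOA, GAPDH and LDHA, and in HK2 only in the second window, which is not shown. Genes with several windows had more chances to hold a match, and a match in letters is not a measured binding site.

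**Figure D1:**
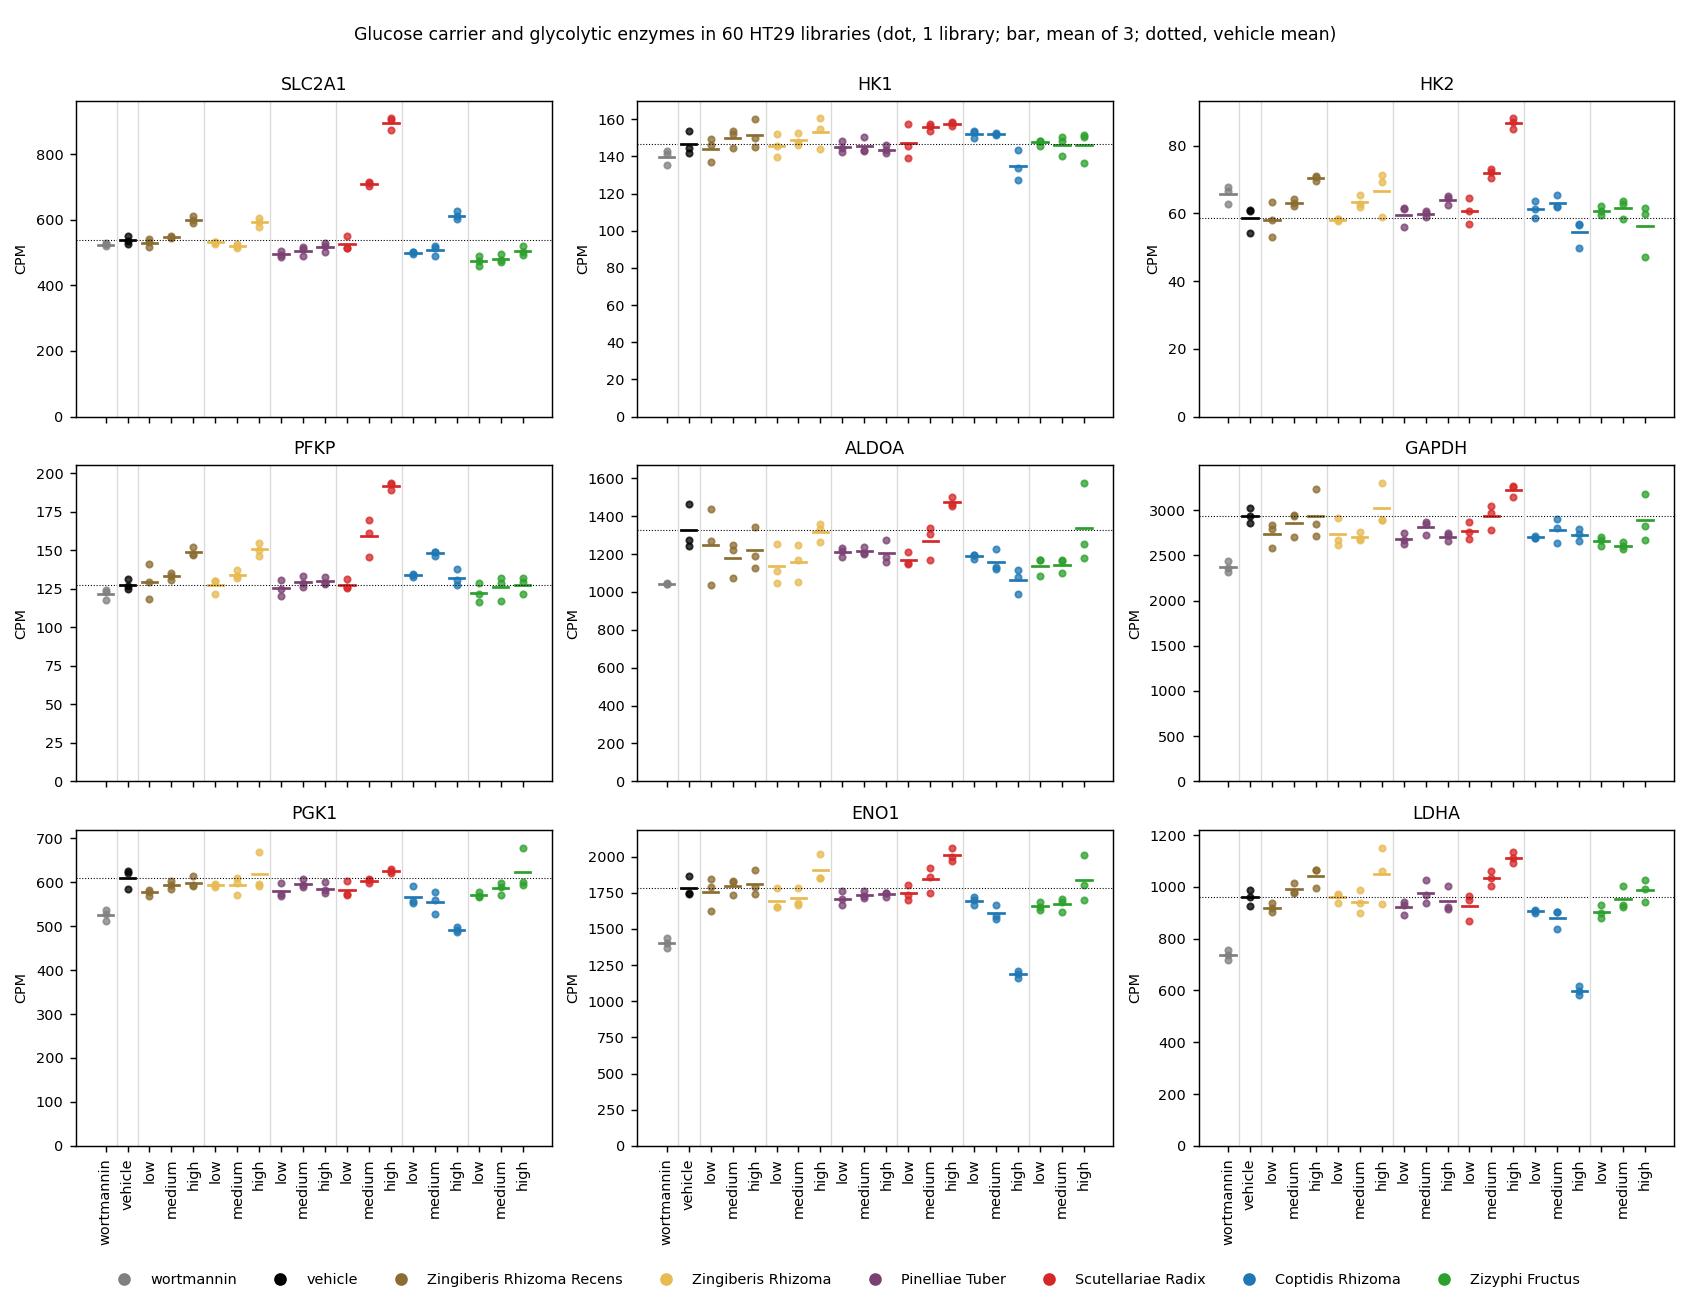
CPM of the 9 tested genes (y axes, starting at 0) in the 20 groups (x axes), with 1 dot per library, a bar at the mean of 3 and a dotted line at the vehicle mean. SLC2A1, HK2 and PFKP climb with the dose of Scutellariae Radix, and LDHA and ENO1 drop at the high dose of Coptidis Rhizoma and with wortmannin.

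With Scutellariae Radix most of the route stood higher. At the high against the low dose 7 of the 9 tested genes rose and 0 fell, beside 16.3% of all 16608 genes called in either direction and 7.92% called higher (edgeR's quasi-likelihood test with Benjamini-Hochberg adjustment over all genes, adjusted p below 0.05). The median log2 change of the 9 genes was 0.26, and that of all genes tested -0.01. Among the 9 genes the largest changes were at the entry and the commitment step, in SLC2A1, PFKP and HK2, and smaller ones followed in ALDOA, LDHA, GAPDH and ENO1. In bulk RNA of this kind, a change in the RNA of each cell cannot be told apart from a change in which cells were present.

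SLC2A1 had 551, 515 and 512 CPM at the low dose, 701, 716 and 710.2 CPM at the medium dose and 905, 908 and 874 CPM at the high dose, beside 551, 535 and 526 CPM in vehicle cells. The doses did not overlap, and only the low dose overlapped vehicle. The log2 change was 0.77 ± 0.04 (SE) for high against low dose (adjusted p = 5.1e-23), a 1.70-fold difference, 0.43 ± 0.04 for medium against low (adjusted p = 2.42e-13) and 0.34 ± 0.04 for high against medium (adjusted p = 4.67e-10).

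HK2 had 64.5, 60.7 and 57.0 CPM at the low dose, 73.1, 70.5 and 72.3 CPM at the medium dose and 86.8, 88.0 and 84.8 CPM at the high dose, against 54.2, 60.6 and 61.0 CPM in vehicle cells. Again no 2 doses overlapped, and only the low dose overlapped vehicle. The change was 0.51 ± 0.07 for high against low dose (adjusted p = 2.34e-08) and 0.27 ± 0.06 for high against medium (adjusted p = 0.00549). For medium against low it was 0.25 ± 0.07 (adjusted p = 0.0202), and this call was lost without medium replicate 1 (adjusted p = 0.125), medium replicate 3 (0.0716), low replicate 2 (0.0955) or low replicate 3 (0.23).

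PFKP had 132, 125 and 126 CPM at the low dose, 146, 161 and 170 CPM at the medium dose and 193, 189 and 194 CPM at the high dose, against 127, 131 and 124 CPM in vehicle cells. It separated the doses as SLC2A1 and HK2 did, with a change of 0.59 ± 0.05 for high against low dose (adjusted p = 1.36e-13), 0.32 ± 0.05 for medium against low (adjusted p = 1.31e-05) and 0.27 ± 0.05 for high against medium (adjusted p = 0.000114). Those 3 genes were the members called at each dose step, beside 3.35% of all genes called for medium against low and 5.09% for high against medium.

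The members of the lower steps moved less than SLC2A1, PFKP and HK2. Outside the list, ALDOC and ENO2 of the lower steps rose by more than ALDOA and ENO1 (values below). ALDOA had 1503, 1465 and 1454 CPM at the high dose, against 1146, 1153 and 1213 CPM at the low dose, a change of 0.33 ± 0.08 (adjusted p = 0.00295). LDHA had 1111, 1094 and 1135 CPM at the high dose, against 963, 868 and 950.1 CPM at the low dose, a change of 0.26 ± 0.05 (adjusted p = 0.000127). The groups of both genes were apart. GAPDH changed by 0.22 ± 0.06 (adjusted p = 0.0033) and ENO1 by 0.20 ± 0.05 (adjusted p = 0.00227), also without overlap of the doses. PGK1 had 629, 625 and 621 CPM at the high dose, against 570, 574 and 602 CPM at the low dose, and its change of 0.10 ± 0.04 did not pass (adjusted p = 0.0965), nor did that of HK1, 0.10 ± 0.05 (adjusted p = 0.15). PGK1 passed without low replicate 3 (adjusted p = 0.0487), and HK1 without low replicate 1 (adjusted p = 0.0381). PGK1 also passed by DESeq2's Wald test (0.0257), without the 4 libraries that stand apart (0.0133) and with only the libraries compared (0.0423).

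Set against vehicle, the high dose raised 5 of the 9 genes, beside 20.3% of all genes called and 9.72% called higher. They were SLC2A1 (0.74 ± 0.04), PFKP (0.59 ± 0.05), HK2 (0.56 ± 0.07), LDHA (0.21 ± 0.05) and ENO1 (0.17 ± 0.05), with adjusted p-values of 1.53e-22, 1.01e-13, 2.08e-09, 0.00168 and 0.0096. GAPDH, with 0.13 ± 0.06, did not pass (adjusted p = 0.0844), and neither did ALDOA, with 0.15 ± 0.08 (adjusted p = 0.199). Both passed without the 4 libraries that stand apart, 1 of which is vehicle replicate 1 (adjusted p = 0.0122 for GAPDH and 0.0126 for ALDOA), and HK1 passed without vehicle replicate 3 (adjusted p = 0.0312, against 0.101 with all libraries). GAPDH also passed with DESeq2's size factors (0.0465), its Wald test (0.0264) and mitochondrially encoded genes left out (0.0395). The Wald test called HK1 too (adjusted p = 0.0455). At the medium dose SLC2A1 (0.40 ± 0.04), PFKP (0.32 ± 0.05) and HK2 (0.29 ± 0.07) rose, 3 of 9 genes beside 6.64% of all. The HK2 call at the medium dose was lost without vehicle replicate 1 (adjusted p = 0.0615, against 0.00212). At the low dose 0 of 9 genes passed, beside 0.126% of all genes, with 1 of 9 at an unadjusted p under 0.05 and 0 by DESeq2's Wald test.

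Coptidis Rhizoma split the route. At the high against the low dose SLC2A1 rose, while HK1, HK2, PGK1, ENO1 and LDHA fell and PFKP, ALDOA and GAPDH did not pass. That is 6 of 9 genes, 1 higher and 5 lower, beside 52.4% of all genes called in either direction and 25.3% called lower, so the number called is not far from that of genes in general. The median log2 change of the 9 genes was -0.17, and that of all genes tested 0.00. In the same libraries the share of counts from mitochondrially encoded genes was 3.77% to 3.99% at the high dose, against 11.8% to 13.7% at the low and medium doses, and ribosomal protein genes took 6.4% to 7.21%, against 5.2% to 5.68%. Their part in these changes was not tested.

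LDHA had 898, 909 and 908 CPM at the low dose, 837, 903 and 904 CPM at the medium dose and 599, 581 and 618 CPM at the high dose, against 989, 926 and 962 CPM in vehicle cells. The high dose lay below all other groups, and the low and medium doses overlapped each other. Its change was -0.59 ± 0.05 for high against low dose (adjusted p = 5.15e-14) and -0.56 ± 0.05 for high against medium (adjusted p = 6.11e-13). ENO1 had 1666, 1700 and 1722 CPM at the low dose, 1587, 1666 and 1568 CPM at the medium dose and 1187, 1209 and 1162 CPM at the high dose, against 1865, 1738 and 1749 CPM in vehicle cells. It changed by -0.52 ± 0.05 for high against low dose (adjusted p = 1.15e-12) and by -0.44 ± 0.05 for high against medium (adjusted p = 1.94e-10). For both genes the step from the medium to the high dose was larger than that from the low to the medium dose, which was -0.04 ± 0.05 for LDHA and -0.08 ± 0.05 for ENO1 and did not pass. Against vehicle, the medium dose had ENO1 at -0.15 ± 0.05, which edgeR did not call (adjusted p = 0.0566) and DESeq2's Wald test did (0.0184).

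PGK1 had 497, 492 and 487 CPM at the high dose, against 553, 592 and 557 CPM at the low dose, without overlap, and fell by 0.21 ± 0.04 on the log2 scale (adjusted p = 5.57e-05). HK1, with 127, 134 and 143 CPM at the high dose against 153, 153 and 150.0 CPM at the low dose, fell by 0.17 ± 0.05 (adjusted p = 0.00129). HK2 had 49.9, 56.9 and 56.6 CPM at the high dose, against 63.8, 58.5 and 61.2 CPM at the low dose, and fell by 0.17 ± 0.07 (adjusted p = 0.0299). The HK2 groups were narrowly apart, and the call was lost without high replicate 1 (adjusted p = 0.218), low replicate 1 (0.127) or low replicate 3 (0.0673), and with no filter on low counts (0.0799).

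SLC2A1 went the other way, with 495, 501 and 501 CPM at the low dose, 488, 520.1 and 515 CPM at the medium dose and 609.7, 627 and 601 CPM at the high dose. The high dose stood above both others and above the 526 to 551 CPM of vehicle cells, and the change for high against low dose was 0.30 ± 0.04 (adjusted p = 5.7e-10). GAPDH had 2789, 2655 and 2732 CPM at the high dose, against 2693, 2695 and 2717 CPM at the low dose, with a change of 0.01 ± 0.06 and a 95% interval from -0.10 to 0.12. The intervals were -0.12 to 0.08 for PFKP and -0.32 to 0.00 for ALDOA, whose change of -0.16 ± 0.08 did not pass (adjusted p = 0.102) but passed without the 4 libraries that stand apart (adjusted p = 0.0248). With only the libraries compared ALDOA passed too (adjusted p = 0.00649).

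Between the high and the medium dose 7 of the 9 genes passed, SLC2A1 higher and HK1, HK2, PFKP, PGK1, ENO1 and LDHA lower, beside 46.5% of all genes. PFKP had 128, 138 and 131 CPM at the high dose, against 149, 149 and 146 CPM at the medium dose, a change of -0.17 ± 0.05 (adjusted p = 0.00461). The HK2 change of -0.21 ± 0.07 (adjusted p = 0.0062) did not pass without high replicate 1 (adjusted p = 0.0759), and with no filter on low counts HK1 (0.071), PFKP (0.09) and PGK1 (0.0584) did not. Between the medium and the low dose 0 of 9 passed, beside 1.3% of all genes, with 1 of 9 at an unadjusted p under 0.05 and 0 by DESeq2's Wald test.

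Relative to vehicle, the high dose of Coptidis Rhizoma raised SLC2A1 (0.19 ± 0.04, adjusted p = 1.03e-05) and lowered LDHA (-0.68 ± 0.05, adjusted p = 5.49e-16), ENO1 (-0.59 ± 0.05, adjusted p = 1.43e-14), ALDOA (-0.32 ± 0.08, adjusted p = 0.00108), PGK1 (-0.31 ± 0.04, adjusted p = 1.86e-08) and HK1 (-0.12 ± 0.05, adjusted p = 0.0254). These are 6 of 9 genes beside 53.8% of all genes called and 27.1% called lower. The HK1 groups overlapped, and its call was lost without vehicle replicate 3 (adjusted p = 0.242), high replicate 1 (0.193) or high replicate 2 (0.0818), with no filter on low counts (0.37) and with only the libraries compared (0.136). At the medium dose 2 of 9 passed, beside 6.32% of all genes, PFKP higher (0.22 ± 0.05, adjusted p = 0.00331) and PGK1 lower (-0.14 ± 0.04, adjusted p = 0.0432). The PGK1 call was lost without vehicle replicate 1 (adjusted p = 0.156), vehicle replicate 3 (0.158), medium replicate 1 (0.295) or medium replicate 3 (0.0952), with no filter on low counts (0.411) and with only the libraries compared (0.235). At the low dose 0 of 9 passed, beside 0.397% of all genes, with 3 of 9 at an unadjusted p under 0.05 and 0 by DESeq2's Wald test.

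Of the 9 genes, wortmannin lowered those from ALDOA onwards, and SLC2A1, HK1, HK2 and PFKP had no call. Outside the 9 this boundary did not hold, as GPI, which acts before aldolase, fell and the aldolase ALDOC rose (values below). Wortmannin could be compared with vehicle only, which bears another sample code, so treatment and code cannot be told apart here. ALDOA, GAPDH, PGK1, ENO1 and LDHA fell and no gene rose, 5 of 9 beside 20.6% of all genes called in either direction and 10.8% called lower, with a median log2 change of -0.21 for the 9 genes and 0.00 for all genes. LDHA had 718, 756 and 737 CPM with wortmannin, against 989, 926 and 962 CPM in vehicle cells, a change of -0.38 ± 0.05 (adjusted p = 1.71e-07). ENO1 had 1402, 1365 and 1436 CPM with wortmannin, against 1865, 1738 and 1749 CPM in vehicle cells, a change of -0.35 ± 0.05 (adjusted p = 4.31e-07). The groups were well apart for both genes.

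ALDOA had 1042, 1039.8 and 1047 CPM with wortmannin, against 1464, 1241 and 1272 CPM in vehicle cells, and changed by -0.35 ± 0.08 (adjusted p = 0.00199). GAPDH had 2436, 2363 and 2316 CPM with wortmannin, against 3022, 2855 and 2933 CPM in vehicle cells, and changed by -0.31 ± 0.06 (adjusted p = 4.45e-05). PGK1 had 536, 529 and 513 CPM with wortmannin, against 622, 584 and 625 CPM in vehicle cells, and changed by -0.21 ± 0.04 (adjusted p = 0.000179). Vehicle itself ranked high in ALDOA, where only the high doses of Scutellariae Radix and Zizyphi Fructus had higher means. In GAPDH only the high doses of Scutellariae Radix and ginger did. In all 5 genes each wortmannin library was below each vehicle library, though the share of all genes without overlap was not counted. The 5 calls held under every alternative run, with each library left out in turn included. SLC2A1 had 528, 525 and 518 CPM with wortmannin, against 551, 535 and 526 CPM in vehicle cells, and its change of -0.04 ± 0.04 did not pass (adjusted p = 0.512). HK2 had 66.6, 62.7 and 67.7 CPM with wortmannin, against 54.2, 60.6 and 61.0 CPM in vehicle cells, without overlap, yet its change of 0.16 ± 0.07 did not pass (adjusted p = 0.0784). PFKP was barely without overlap too, with at most 124.42 CPM with wortmannin and at least 124.49 CPM in vehicle cells. Its change of -0.07 ± 0.05 did not pass (adjusted p = 0.359).

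**Figure D2:**
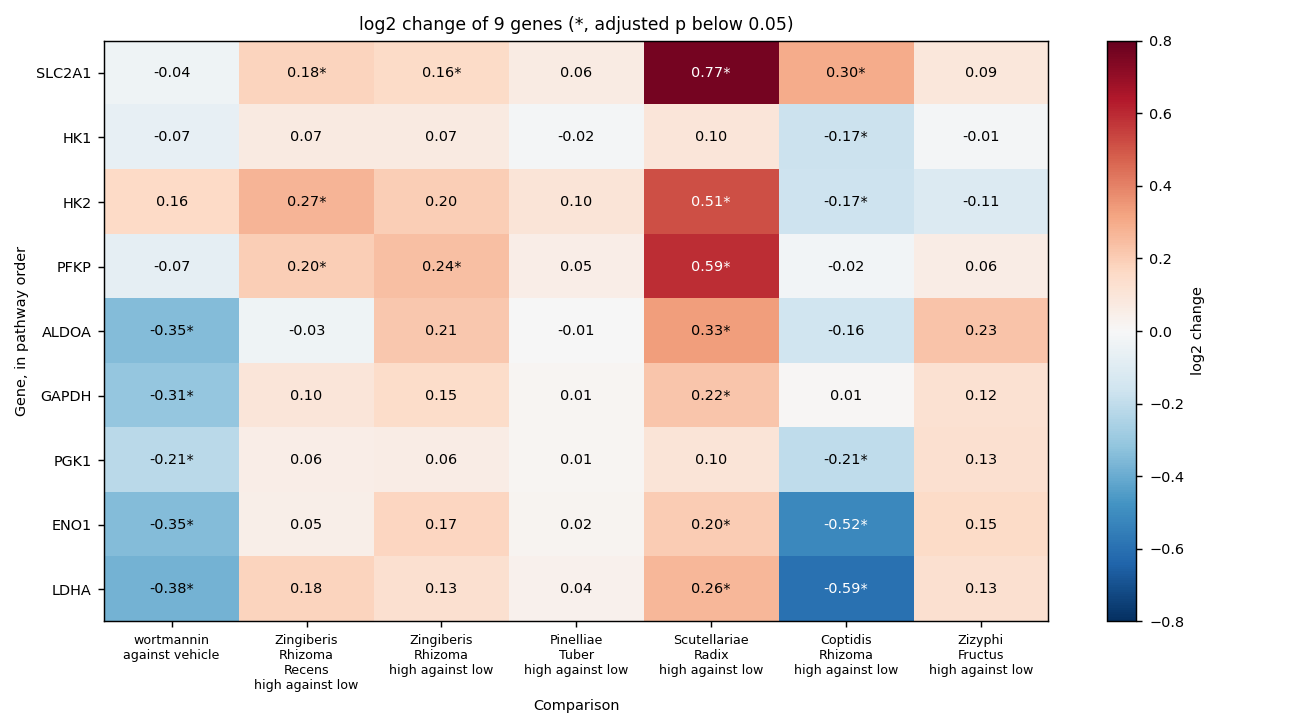
Log2 change of the 9 tested genes (vertical, in pathway order) for wortmannin against vehicle and for high against low dose of each extract (horizontal), with the value in each cell and an asterisk where the adjusted p was below 0.05. Scutellariae Radix has asterisks in 7 genes, all positive, wortmannin in 5, all negative, and Coptidis Rhizoma in 6, of which SLC2A1 alone is positive.

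Both gingers raised a few upper-step genes slightly. At the high against the low dose of fresh ginger, SLC2A1, HK2 and PFKP rose, 3 of 9 beside 1.79% of all genes. SLC2A1 had 589, 598 and 610.3 CPM at the high dose, against 531, 516 and 541 CPM at the low dose, a change of 0.18 ± 0.04 (adjusted p = 0.00189). HK2 had 69.6, 71.0 and 70.8 CPM at the high dose, against 53.0, 58.0 and 63.5 CPM at the low dose, a change of 0.27 ± 0.07 (adjusted p = 0.0227). PFKP had 148, 147 and 152 CPM at the high dose, against 118, 129 and 141 CPM at the low dose, a change of 0.20 ± 0.05 (adjusted p = 0.0268). The high dose lay above the low dose in all 3 genes, by a narrow margin in PFKP. The HK2 call was lost without low replicate 1 (adjusted p = 0.291), high replicate 2 (0.0981) or high replicate 3 (0.108), and the PFKP call without low replicate 1 (0.387), high replicate 2 (0.0685) or high replicate 3 (0.145). With only the libraries compared all 3 calls were lost (adjusted p = 0.631 for SLC2A1, 0.459 for HK2 and 0.632 for PFKP). With no filter on low counts those of SLC2A1 (0.134) and PFKP (0.0983) were lost, and that of PFKP also without the 4 libraries that stand apart (0.229). LDHA, with 0.18 ± 0.05, did not pass (adjusted p = 0.0552), and did so without high replicate 2 (0.0382) or low replicate 2 (0.0174). It also passed with DESeq2's size factors (0.0369), its Wald test (0.0097) and mitochondrially encoded genes left out (0.0385).

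Against vehicle the same 3 genes passed at the high dose of fresh ginger, SLC2A1 with 0.16 ± 0.04 (adjusted p = 0.00723), HK2 with 0.26 ± 0.07 (adjusted p = 0.0213) and PFKP with 0.22 ± 0.05 (adjusted p = 0.0064), beside 2.08% of all genes. The HK2 call was lost without vehicle replicate 1 (adjusted p = 0.273), high replicate 2 (0.109) or high replicate 3 (0.0966), and the PFKP call without vehicle replicate 1 (0.0582) or high replicate 3 (0.0608). All 3 were lost with only the libraries compared (0.22 for SLC2A1, 0.124 for HK2 and 0.107 for PFKP), and SLC2A1 with no filter on low counts (0.209). At the medium and the low dose 0 of 9 genes passed, beside 0% of all genes in each. At these doses 0 of 9 had an unadjusted p under 0.05, and DESeq2's Wald test called 0.

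Ginger at the high against the low dose raised SLC2A1 and PFKP, 2 of 9 beside 0.915% of all genes. SLC2A1 had 592, 605 and 579 CPM at the high dose, against 533, 533 and 527 CPM at the low dose, a change of 0.16 ± 0.04 (adjusted p = 0.012). PFKP had 155, 150.0 and 146 CPM at the high dose, against 121, 130.2 and 130.2 CPM at the low dose, a change of 0.24 ± 0.05 (adjusted p = 0.00416). Neither gene overlapped. The SLC2A1 call was lost without high replicate 1 (adjusted p = 0.084), high replicate 2 (0.125), low replicate 1 (0.0992), low replicate 2 (0.0988) or low replicate 3 (0.0723), and the PFKP call without high replicate 1 (0.0918) or low replicate 1 (0.163). With only the libraries compared both were lost (0.414 for SLC2A1 and 0.182 for PFKP), and SLC2A1 was also lost with no filter on low counts (0.446) and without the 4 libraries that stand apart (0.0604). In that last fit HK2 passed, with 0.27 (adjusted p = 0.000874, against 0.171).

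Relative to vehicle, the high dose of ginger raised the same genes, SLC2A1 with 0.14 ± 0.04 (adjusted p = 0.0406) and PFKP with 0.24 ± 0.05 (adjusted p = 0.00526), beside 0.789% of all genes. The SLC2A1 call was lost whichever of the 6 libraries was left out, vehicle or high (adjusted p = 0.0627 to 0.192). The PFKP call was lost without vehicle replicate 1 (0.0625), vehicle replicate 3 (0.0676) or high replicate 1 (0.0801), and both calls with only the libraries compared (1 for SLC2A1 and 0.6 for PFKP). LDHA passed without high replicate 1 (adjusted p = 0.0478). At the medium dose 0 of 9 passed, beside 0.012% of all genes, with 2 of 9 at an unadjusted p under 0.05. At the low dose 0 of 9 passed, beside 0% of all genes, with 1 of 9 at an unadjusted p under 0.05. DESeq2's Wald test called 0 at both doses.

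Pinelliae Tuber left the 9 genes without a call. For its high, medium and low dose against vehicle 0 of 9 passed, beside 0.187%, 0.0482% and 0.012% of all genes, with 1, 1 and 2 of 9 at an unadjusted p under 0.05. For high against low dose 0 of 9 passed, beside 0.0421% of all genes, with 0 of 9 at an unadjusted p under 0.05. DESeq2's Wald test called 1 gene in these 4 comparisons, SLC2A1 at the low dose (-0.12, adjusted p = 0.0448). SLC2A1 had 505, 485 and 492 CPM at the low dose and 528, 521 and 502 CPM at the high dose, which overlapped vehicle only at the high dose.

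Zizyphi Fructus gave 1 call in 4 comparisons. SLC2A1 had 489, 458 and 474 CPM at the low dose, its lowest group mean in the series, and, against vehicle cells, fell by 0.18 ± 0.04 (adjusted p = 0.0381), 1 of 9 beside 0.012% of all genes. The call was lost without vehicle replicate 1 (adjusted p = 0.727), vehicle replicate 2 (0.116), vehicle replicate 3 (0.0621), low replicate 2 (0.28) or low replicate 3 (0.122), and under 5 other alternatives, from size factors in place of TMM scaling (0.0621) to only the libraries compared (0.171). For the high and the medium dose against vehicle 0 of 9 passed, beside 0.0181% and 0% of all genes, with 1 and 3 of 9 at an unadjusted p under 0.05. DESeq2's Wald test called 0 at the high dose and SLC2A1 at the medium dose (-0.15, adjusted p = 0.000861).

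For high against low dose of Zizyphi Fructus 0 of 9 passed, beside 0.0482% of all genes, with 6 of 9 at an unadjusted p under 0.05. DESeq2's Wald test called SLC2A1, PGK1 and ENO1, all higher, with 0.08, 0.12 and 0.14 (adjusted p = 0.0412, 0.0286 and 0.0297). Without high replicate 1, edgeR called ALDOA, GAPDH, PGK1, ENO1 and LDHA higher and HK2 lower, with adjusted p-values from 0.00595 for ENO1 to 0.0451 for LDHA, and without high replicate 2 it called PGK1 (0.035). ALDOA shows the spread behind this, with 1180, 1251 and 1575 CPM at the high dose, against 1167, 1083 and 1169 CPM at the low dose. The highest of these values is that of high replicate 3, the library with 8.18% of its counts in ribosomal protein genes.

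The high-against-low changes of 2 extracts were compared where their sample codes begin alike. Scutellariae Radix exceeded Pinelliae Tuber in SLC2A1 by 0.70 ± 0.05 (adjusted p = 2.31e-15), in PFKP by 0.54 ± 0.07 (adjusted p = 1.23e-07) and in HK2 by 0.41 ± 0.09 (adjusted p = 0.00232), 3 of 9 genes beside 6.32% of all. LDHA, with 0.23 ± 0.07 in this comparison, lay just outside (adjusted p = 0.0514). It passed when any of Scutellariae low replicate 1 (0.0274), low replicate 3 (0.0419), high replicate 2 (0.0475), Pinelliae low replicate 2 (0.0357) or high replicate 3 (0.0154) was left out, with the replicate block (0.045) and with only the libraries compared (0.0135). LDHA also passed with DESeq2's size factors (0.0364) and its Wald test (0.0143). Leaving out the 4 libraries that stand apart (0.00927) or mitochondrially encoded genes (0.0291) had the same result. ALDOA, GAPDH and ENO1 also passed with only the libraries compared (adjusted p = 0.00011, 0.0127 and 0.0312, against 0.0806, 0.128 and 0.148), and ALDOA without Pinelliae high replicate 1 (0.0448). Without the 4 libraries that stand apart ALDOA, GAPDH and ENO1 passed too (0.00927, 0.0231 and 0.0263). DESeq2's Wald test called ALDOA (0.0482) and ENO1 (0.0497), and ALDOA passed with no filter on low counts (0.0107).

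Coptidis Rhizoma differed from Zizyphi Fructus in 6 of 9 genes, beside 41.4% of all. Its change was higher in SLC2A1, by 0.20 ± 0.05 (adjusted p = 0.000769, and 0.072 with no filter on low counts), and lower in LDHA (-0.72 ± 0.07, adjusted p = 1.36e-11), ENO1 (-0.67 ± 0.07, adjusted p = 4.03e-11), PGK1 (-0.33 ± 0.06, adjusted p = 9.87e-06), ALDOA (-0.39 ± 0.12, adjusted p = 0.00629) and HK1 (-0.16 ± 0.07, adjusted p = 0.0428). The ALDOA call was lost without Zizyphi high replicate 3 (adjusted p = 0.0582). The HK1 call was lost in 10 of the 12 fits that left out 1 library, with Coptidis high replicate 3 and Zizyphi high replicate 3 the exceptions (adjusted p = 0.0591 to 0.179), and also with size factors (0.0512), no filter on low counts (0.355), mitochondrially encoded genes left out (0.061) and only the libraries compared (0.156). The high doses of the pair were not equal, 290 µg/mL for Coptidis Rhizoma and 500 µg/mL for Zizyphi Fructus. Between ginger and fresh ginger 0 of 9 genes differed, beside 0% of all genes, with 1 of 9 at an unadjusted p under 0.05 and 0 by DESeq2's Wald test.

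Across the 20 groups, the high dose of Scutellariae Radix had the highest mean CPM of each of the 9 genes. The lead was slight for PGK1, 624.9 against 624.3 CPM at the high dose of Zizyphi Fructus. It was also slight for HK1, 157.8 against 155.9 CPM at the medium dose of Scutellariae Radix. The lowest group was the high dose of Coptidis Rhizoma for HK1, HK2, PGK1, ENO1 and LDHA, wortmannin for PFKP, ALDOA and GAPDH, and the low dose of Zizyphi Fructus for SLC2A1. The highest group mean was 1.89 times the lowest for SLC2A1, 1.86 for LDHA, 1.69 for ENO1, 1.59 for HK2 and 1.58 for PFKP. ALDOA (1.41), GAPDH (1.36), PGK1 (1.27) and HK1 (1.17) spanned less. With the groups in order of their means, most neighbours overlapped: of 19 neighbouring pairs, those without overlap were 3 for SLC2A1, 2 each for PFKP, ENO1 and LDHA, 1 each for HK2, GAPDH and PGK1, and 0 for HK1 and ALDOA. For SLC2A1 the gaps lay above and below the medium dose of Scutellariae Radix and below the high dose of ginger, and for ENO1 and LDHA they lay above wortmannin and above the high dose of Coptidis Rhizoma.

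**Figure D3:**
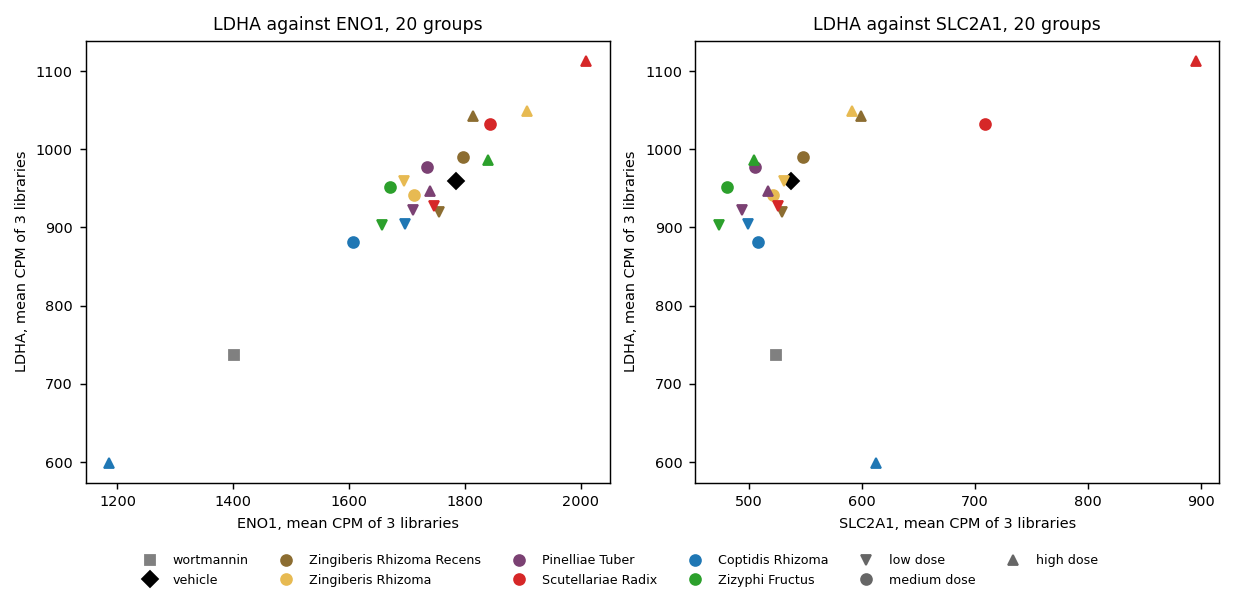
Mean CPM of LDHA (y axes) against that of ENO1 (left) and SLC2A1 (right), with 1 symbol per group of 3 libraries, coloured by treatment and shaped by dose. LDHA and ENO1 lie near a line. In the right panel the medium and high doses of Scutellariae Radix stand at high SLC2A1, and wortmannin and high-dose Coptidis Rhizoma at low LDHA.

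Over the 20 group means of log2 CPM, Pearson's r was 0.982 between ENO1 and LDHA, 0.960 between PGK1 and ENO1 and 0.959 between PGK1 and LDHA. It was 0.885 between SLC2A1 and PFKP, 0.847 between HK2 and PFKP and 0.769 between SLC2A1 and HK2, and 0.860 between ALDOA and GAPDH. The values did not divide the route into upper and lower steps: HK1 had 0.811 with LDHA and 0.451 with SLC2A1, and GAPDH had 0.762 with PFKP and 0.657 with ENO1. SLC2A1 and LDHA had 0.248. These values describe 20 groups that share library preparation and scaling, a few groups lie far from the rest, and they carry no p-value. Over all tested genes, EMP1 (0.957) and NTSR1 (0.951) were among those most like SLC2A1. Those most like LDHA were PSMD14 (0.982), ENO1 (0.982) and GPI (0.981), and those most like ENO1 were PSMD14 (0.986), LDHA (0.982) and RCC1 (0.978).

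Other genes of glucose handling were described as 9 lists of 82 genes, 66 of which were tested. At the high against the low dose of Scutellariae Radix 22 of them rose and 7 fell, at that of Coptidis Rhizoma 23 rose and 22 fell, and with wortmannin 10 rose and 15 fell. The shares of all genes called in these comparisons, 16.3%, 52.4% and 20.6%, stand beside them.

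Among the other glycolytic enzymes, 6 of 13 rose and 0 fell with Scutellariae Radix, 1 rose and 9 fell with Coptidis Rhizoma, and 2 rose and 6 fell with wortmannin. With Scutellariae Radix the neuronal enolase ENO2 rose by 0.66 ± 0.08 (adjusted p = 4.5e-09), with 28.0, 29.5 and 27.9 CPM at the high dose against 18.3, 19.4 and 16.6 CPM at the low dose, and the aldolase ALDOC by 0.76 ± 0.10 (adjusted p = 1.6e-07). With Coptidis Rhizoma the hexokinase HKDC1 had 97.98, 108 and 105 CPM at the high dose, against 31.9, 31.4 and 30.4 CPM at the low dose, and rose by 1.73 ± 0.06 (adjusted p = 3.42e-30), while HK1 and HK2 fell. GPI, which makes fructose 6-phosphate, fell there by 0.39 ± 0.04 (adjusted p = 2.03e-11). Wortmannin lowered GPI too (-0.24 ± 0.04, adjusted p = 2.27e-05), and raised ALDOC by 0.64 ± 0.11 (adjusted p = 1.07e-05) where ALDOA fell.

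**Figure D4:**
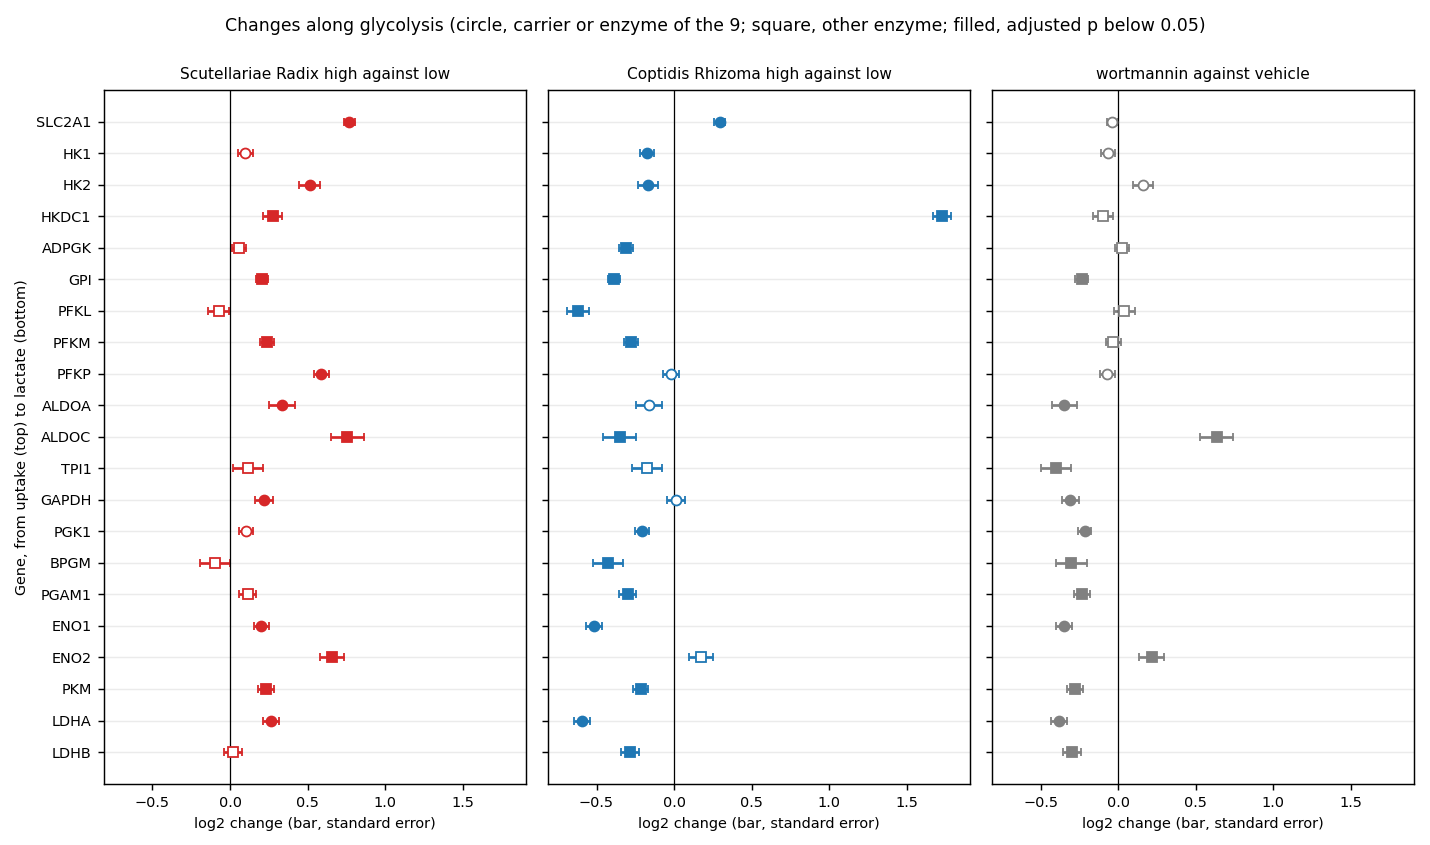
Log2 change and standard error (x axes) of the carrier SLC2A1 and 20 tested enzymes from uptake to lactate (y axis, top to bottom) for Scutellariae Radix high against low dose, Coptidis Rhizoma high against low dose and wortmannin against vehicle; filled symbols had an adjusted p below 0.05. Symbols lie mostly right of 0 for Scutellariae Radix and mostly left of 0 for the other treatments, with HKDC1 far to the right for Coptidis Rhizoma.

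Of the 8 other glucose carriers tested, 1 rose and 3 fell with Scutellariae Radix, 3 rose and 3 fell with Coptidis Rhizoma, and 3 rose and 1 fell with wortmannin. SLC5A1, the sodium-coupled carrier of the intestinal brush border, had 11.4, 12.4 and 11.5 CPM at the high dose of Scutellariae Radix, against 19.2, 17.97 and 18.7 CPM at the low dose, and fell by 0.66 ± 0.07 (adjusted p = 1.18e-10). It also fell with Coptidis Rhizoma, by 0.67 ± 0.07 (adjusted p = 8.54e-12), and rose with wortmannin, by 0.32 ± 0.07 (adjusted p = 0.000273). SLC5A1 thus moved against SLC2A1 in both extracts. SLC2A6 rose with Scutellariae Radix (0.42 ± 0.10, adjusted p = 0.000929), SLC2A11 with Coptidis Rhizoma (0.82 ± 0.11, adjusted p = 3.31e-08) and SLC2A10 with wortmannin (0.71 ± 0.19, adjusted p = 0.00451), each at under 13 CPM.

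TXNIP, a brake that takes glucose carriers off the membrane, had 57.3, 55.6 and 61.6 CPM at the low dose of Scutellariae Radix, 44.9, 46.2 and 53.6 CPM at the medium dose and 34.98, 36.7 and 35.7 CPM at the high dose. It fell with this extract, where SLC2A1 rose, by 0.70 ± 0.06 for high against low dose (adjusted p = 1.44e-13). With Coptidis Rhizoma it had 32.5, 33.3 and 31.2 CPM at the low dose, 22.9, 21.5 and 21.7 CPM at the medium dose and 155, 152 and 156 CPM at the high dose, against 59.8, 58.1 and 61.4 CPM in vehicle cells. The low and medium doses thus lay below vehicle and the high dose above it, with log2 changes from vehicle of -0.88, -1.44 and 1.37 (adjusted p = 5.34e-16, 3.16e-24 and 2.21e-26). Its relative ARRDC4 showed the same order of signs, -0.85, -1.10 and 1.49 (adjusted p = 2.83e-07, 2.37e-10 and 4.9e-19). Wortmannin raised TXNIP by 0.75 ± 0.06 (adjusted p = 9.3e-15). ARRDC4 had no call with wortmannin, nor for high against low dose of Scutellariae Radix. With Coptidis Rhizoma SLC2A1 did not move against TXNIP. Its changes from vehicle were -0.11, -0.08 and 0.19 at the low, medium and high dose (adjusted p = 0.26, 0.175 and 1.03e-05). A part of TXNIP in the SLC2A1 changes was not tested.

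The fructose-2,6-bisphosphate enzymes set the level of the main activator of phosphofructokinase. PFKFB3 rose with Scutellariae Radix (0.31 ± 0.07, adjusted p = 0.00037), fell with Coptidis Rhizoma (-0.37 ± 0.07, adjusted p = 7.08e-06) and rose with wortmannin (0.21 ± 0.07, adjusted p = 0.0181). PFKFB4 rose with Scutellariae Radix (0.66 ± 0.15, adjusted p = 0.00124), and TIGAR, which lowers the activator, rose with Coptidis Rhizoma (0.27 ± 0.08, adjusted p = 0.00327). Of the 4 tested, 2 rose and 0 fell with Scutellariae Radix, 2 rose and 2 fell with Coptidis Rhizoma, and 1 rose and 0 fell with wortmannin.

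Beyond pyruvate, the lactate exporter SLC16A3 rose with Scutellariae Radix (0.27 ± 0.07, adjusted p = 0.00184) and Coptidis Rhizoma (0.61 ± 0.06, adjusted p = 2.35e-11), and SLC16A7 fell with Scutellariae Radix (-0.31 ± 0.10, adjusted p = 0.0176). MPC1 and MPC2, which form the mitochondrial pyruvate carrier, fell with wortmannin by 0.62 ± 0.12 and 0.38 ± 0.08 (adjusted p = 0.00013 and 0.00064), and MPC2 fell with Coptidis Rhizoma by 0.31 ± 0.08 (adjusted p = 0.00153). Of these 6 carriers 2 rose and 1 fell with Scutellariae Radix, 1 rose and 1 fell with Coptidis Rhizoma, and 1 rose and 3 fell with wortmannin. In the pyruvate dehydrogenase list of 11, PDHA1, the catalytic subunit, fell with wortmannin (-0.21 ± 0.04, adjusted p = 0.00019) and Coptidis Rhizoma (-0.20 ± 0.04, adjusted p = 5.91e-05), PDHX fell with wortmannin (-0.28 ± 0.06, adjusted p = 0.000481), and the phosphatase PDP2 fell with Coptidis Rhizoma (-0.31 ± 0.08, adjusted p = 0.000546). With Scutellariae Radix the kinase PDK2 fell (-0.29 ± 0.05, adjusted p = 5.89e-05) and DLAT rose (0.23 ± 0.05, adjusted p = 0.000138). That list had 4 higher and 1 lower with Scutellariae Radix, 2 and 2 with Coptidis Rhizoma, and 1 and 3 with wortmannin.

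Of 5 gluconeogenic genes, 1 rose and 1 fell with Scutellariae Radix, 2 rose and 2 fell with Coptidis Rhizoma, and 0 passed with wortmannin, where 0 had an unadjusted p under 0.05. The mitochondrial PCK2, which makes phosphoenolpyruvate, had 30.6, 28.9 and 30.3 CPM at the low dose of Coptidis Rhizoma, 55.5, 55.6 and 50.3 CPM at the medium dose and 134, 138 and 132 CPM at the high dose, and rose by 2.17 ± 0.09 for high against low dose (adjusted p = 2.66e-27). FBP1, which reverses the phosphofructokinase step, fell in both extracts, by 0.36 ± 0.07 with Scutellariae Radix (adjusted p = 0.000116) and by 0.43 ± 0.07 with Coptidis Rhizoma (adjusted p = 9.25e-07). PC rose with Scutellariae Radix (0.30 ± 0.06, adjusted p = 0.000191).

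The transcription factors known to act on the route had 4 higher and 0 lower of 7 with Scutellariae Radix, 2 and 2 with Coptidis Rhizoma, and 0 and 1 with wortmannin. EPAS1, a hypoxia factor, rose with Scutellariae Radix (0.29 ± 0.08, adjusted p = 0.00431) and Coptidis Rhizoma (0.87 ± 0.07, adjusted p = 1.51e-14), and MYC rose with Scutellariae Radix (0.19 ± 0.05, adjusted p = 0.00382). MLXIP, a glucose-sensing factor, fell with Coptidis Rhizoma (-0.80 ± 0.06, adjusted p = 1.33e-15), and its partner MLX fell with wortmannin (-0.15 ± 0.05, adjusted p = 0.0142).

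Of 10 hypoxia-induced genes outside glycolysis, 8 rose and 1 fell with Coptidis Rhizoma, 2 rose and 0 fell with Scutellariae Radix, and 1 rose and 1 fell with wortmannin. The growth factor VEGFA had 374, 350.4 and 356 CPM at the high dose of Coptidis Rhizoma, against 84.0, 76.1 and 80.6 CPM at the low dose, and rose by 2.17 ± 0.05 (adjusted p = 3.57e-37). The carbonic anhydrase CA9 fell there, with 27.3, 26.0 and 26.1 CPM at the high dose, against 63.3, 65.7 and 65.4 CPM at the low dose (-1.29 ± 0.12, adjusted p = 1.18e-12). In the same comparison HK2, PGK1, ENO1 and LDHA fell while VEGFA rose. With Scutellariae Radix VEGFA rose by 0.61 ± 0.05 (adjusted p = 7.09e-14) and P4HA1, a collagen hydroxylase, by 0.28 ± 0.08 (adjusted p = 0.00803). With wortmannin NDRG1 rose by 0.54 ± 0.17 (adjusted p = 0.0177) and ADM, a vasodilator peptide, fell by 0.48 ± 0.17 (adjusted p = 0.0377).

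**Figure D5:**
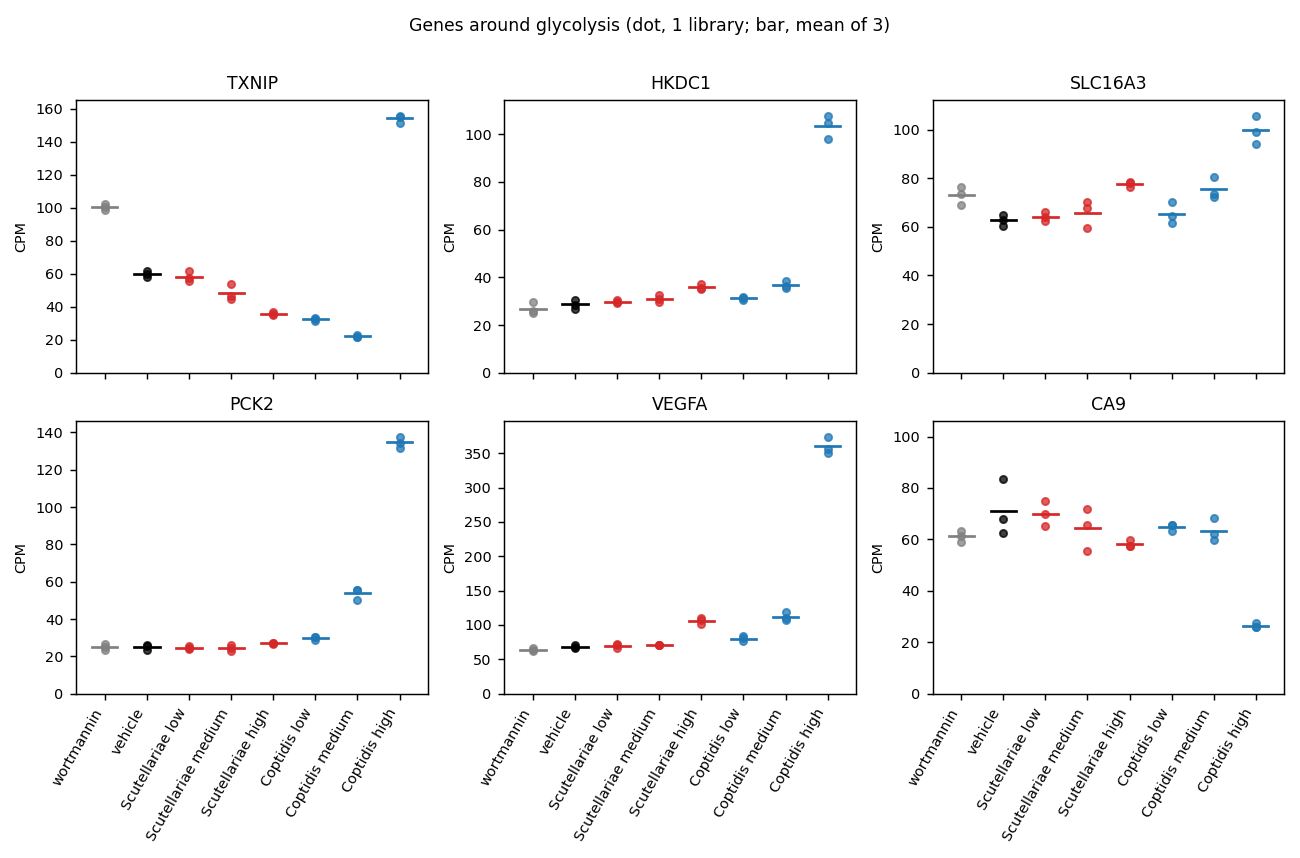
CPM (y axes, starting at 0) of 6 genes around glycolysis in the wortmannin, vehicle, Scutellariae Radix and Coptidis Rhizoma groups (x axes), with 1 dot per library and a bar at the mean of 3. HKDC1, SLC16A3, PCK2 and VEGFA stand highest at the high dose of Coptidis Rhizoma, where CA9 is lowest, and TXNIP dips at its low and medium doses before standing highest at the high dose.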

How the data were processed

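Per the labels' protocols, total RNA of HT29 cells was made into directional mRNA libraries (MGIEasy kit) and sequenced as paired reads of 100 bp. Per the submitters' processing notes, reads were mapped to GRCh38, the tools named being RSEM 1.3.3, STAR 2.7.3a, Trim Galore 0.6.5 and FastQC 0.11.9. The annotation release is not given in the sources used here. The deposited values are RSEM's expected counts per gene, not scaled between libraries by the authors. Of these values 8.75% were not whole, and they were rounded. The other 210 columns of the table belong to samples not analysed here.

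Symbols came from a gene name table that matched 56558 of 60675 identifiers, and positions and exon lengths from GENCODE release 29. The model was fitted in R 4.3.3 with edgeR 4.0.16: TMM scaling, the filterByExpr filter (16608 genes left), a coefficient for each of the 20 groups, all 60 libraries together (common dispersion 0.00443, 40 residual degrees of freedom) and robust quasi-likelihood F tests. P-values of the 32 comparisons received a Benjamini-Hochberg adjustment over the 16608 genes of each, and a gene was called below 0.05. Standard errors are the absolute log2 change divided by the square root of F, and 95% intervals are 1.96 of them to each side. CPM use the TMM-scaled library size. These intervals include the scatter between libraries, while limits on zero counts cover counting error only. Depth was 11.1 to 34.4 M counts per library. The script was tested on simulated counts.

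The 10 genes and all lists were chosen with earlier results of these data known. Named by rule were the 10 genes, in each other list the 2 called genes with the smallest p in wortmannin against vehicle and in high against low dose of Scutellariae Radix and of Coptidis Rhizoma, and the 3 genes most like each of the 3 members with the widest range. Of these, 1 gene is not reported here. ARRDC4 beside TXNIP, and genes named because they were called under an alternative, were added after their values were seen. Alternatives were DESeq2's size factors, no filter on low counts, DESeq2 1.42.0's Wald test, only the libraries compared, a replicate block, each library left out in turn, 4 libraries left out together and, chosen after seeing the data, mitochondrially encoded genes left out. Little sign of pairing by replicate number was seen. With group means taken out, same-numbered libraries correlated above 0.1 in every pair in 1 of 29 comparisons (r from -0.37 to 0.34). Such correlations cannot exclude that same-numbered libraries were handled together. No library was a copy of another of its group (smallest chi-square per gene 2.24 over 60 pairs within groups), and pairs across groups were not compared.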

Additional observations from a re-analysis of the deposited data

Results flagged for a closer look

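In 9 cases a gene's high-against-low change differed between 2 extracts whose sample codes begin alike by a test of the difference itself (edgeR's quasi-likelihood test of an interaction contrast, Benjamini-Hochberg adjustment). Between Scutellariae Radix and Pinelliae Tuber the log2 difference was 0.70 for SLC2A1 (adjusted p = 2.31e-15), 0.54 for PFKP (adjusted p = 1.23e-07) and 0.41 for HK2 (adjusted p = 0.00232). In all 3 genes the Scutellariae Radix doses were apart and the Pinelliae Tuber change did not pass. Between Coptidis Rhizoma and Zizyphi Fructus it was 0.20 for SLC2A1 (adjusted p = 0.000769), -0.16 for HK1 (adjusted p = 0.0428), -0.39 for ALDOA (adjusted p = 0.00629), -0.33 for PGK1 (adjusted p = 9.87e-06), -0.67 for ENO1 (adjusted p = 4.03e-11) and -0.72 for LDHA (adjusted p = 1.36e-11). The HK1 difference was not called in 10 of the 12 fits that left out 1 library (adjusted p = 0.0591 to 0.179), nor with size factors (0.0512), no filter on low counts (0.355), mitochondrially encoded genes left out (0.061) or only the libraries compared (0.156), and that of SLC2A1 was not called with no filter (0.072). For ALDOA the difference was not called without Zizyphi Fructus high replicate 3 (adjusted p = 0.0582), and the top doses of this pair were 290 and 500 µg/mL.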

How the results depend on the processing

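Of the 67 calls of single genes over all comparisons, 44 were kept under every alternative, and no called change reversed its sign. Of 221 uncalled values 35 passed under at least 1 alternative. The number of the 9 genes called stayed within 1.5 times in 18 of 32 comparisons. The counts that moved further follow, and the cause was not tested. With no filter on low counts, the count became 1 for the high dose of ginger against vehicle (from 2), the low dose of ginger (from 0), the medium dose of Coptidis Rhizoma (from 2), the medium dose of Zizyphi Fructus (from 0), high against low dose of fresh ginger (from 3), of ginger (from 2) and of Zizyphi Fructus (from 0), and 4 for high against medium dose of Coptidis Rhizoma (from 7). With DESeq2's Wald test it became 1 for the low dose of Pinelliae Tuber and the medium dose of Zizyphi Fructus (from 0 each), 3 for high against low dose of Zizyphi Fructus (from 0) and 6 for Scutellariae Radix minus Pinelliae Tuber (from 3). With only the libraries compared it became 0 for the high dose of both gingers against vehicle and against the low dose, 0 for the low dose of Zizyphi Fructus (from 1), 1 for the medium dose of Coptidis Rhizoma against vehicle (from 2) and against the low dose (from 0), and 7 for Scutellariae Radix minus Pinelliae Tuber (from 3). Without the 4 libraries that stand apart it became 1 for the high dose of ginger (from 2), 0 for the low dose of Zizyphi Fructus (from 1), 6 for high against medium dose of Scutellariae Radix (from 3) and 7 for Scutellariae Radix minus Pinelliae Tuber (from 3). Size factors, and leaving out mitochondrially encoded genes, gave 0 for the low dose of Zizyphi Fructus. Leaving out 1 library at a time gave 1 to 3 for the high dose of fresh ginger, 0 to 1 for that of ginger, 1 to 2 for the medium dose of Coptidis Rhizoma and 0 to 1 for the low dose of Zizyphi Fructus, each against vehicle, and 1 to 4, 0 to 2 and 0 to 6 for high against low dose of fresh ginger, ginger and Zizyphi Fructus. The replicate block moved no count of the 9 genes beyond 1.5 times; it added LDHA for fresh ginger high against low dose (adjusted p = 0.0448) and for Scutellariae Radix minus Pinelliae Tuber (adjusted p = 0.045).

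Over all genes, the count with only the libraries compared was 4141, against 2714 in the fit reported, for Scutellariae Radix high against low dose, 1663 against 1050 for Scutellariae Radix minus Pinelliae Tuber, 357 against 1103 for the medium dose of Scutellariae Radix and 489 against 1049 for that of Coptidis Rhizoma. For the high dose of fresh ginger against vehicle it was 1113 with no filter, 548 with the Wald test and 74 with only the libraries compared, against 346, and for ginger 242, 75 without the 4 libraries and 10 with only the libraries compared, against 131. For high against low dose of Zizyphi Fructus it was 1982 with no filter and 1185 with the Wald test, against 8. For high against low dose of fresh ginger it was 559 with no filter and 23 with only the libraries compared, against 298, for that of ginger 436 and 34, against 152, and for the low dose of Coptidis Rhizoma 464 and 25, against 66. Comparisons with under 50 calls, and medium against low dose of Scutellariae Radix and of Coptidis Rhizoma, moved by more than 1.5 times under some alternatives too. Counts were at least 589 per library for all 9 genes, with the lowest in HK2, and of the 10 genes only SLC2A3 was too low to test. Of the 82 other genes 66 were tested, some at low levels and with wide standard errors.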

Other observations

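Several enzymes that the rule for names did not pick moved with the 9 genes, and they are named here after their values were seen. With wortmannin, TPI1, the triosephosphate isomerase, had 668, 641 and 648 CPM, against 996, 828 and 757 CPM in vehicle cells, and fell by 0.40 ± 0.10 (edgeR's quasi-likelihood test with Benjamini-Hochberg adjustment, adjusted p = 0.00225). The pyruvate kinase PKM fell by 0.28 ± 0.05 (adjusted p = 4.6e-05), LDHB by 0.30 ± 0.06 (adjusted p = 0.000142) and the mutase PGAM1 by 0.23 ± 0.05 (adjusted p = 0.00112).

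With Coptidis Rhizoma at the high against the low dose, the liver-type phosphofructokinase PFKL fell by 0.62 ± 0.07 (adjusted p = 7.29e-11), the muscle-type PFKM by 0.28 ± 0.05 (adjusted p = 2.51e-06) and the ADP-dependent glucokinase ADPGK by 0.31 ± 0.04 (adjusted p = 7.09e-08), while PFKP had a change of -0.02 ± 0.05 that did not pass. PKM had 1907, 1971 and 1880.1 CPM at the high dose, against 2173, 2279 and 2237 CPM at the low dose, and fell by 0.22 ± 0.05 (adjusted p = 0.000283). With Scutellariae Radix PKM rose by 0.23 ± 0.05 (adjusted p = 0.000463).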
